A study of Arabidopsis thaliana with 8 samples.

Results

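The transcripts described here are those of intracellular immune receptors of Arabidopsis thaliana, most of which join a nucleotide-binding NB-ARC domain to leucine-rich repeats. A gene was taken as a member where its RefSeq product name contains TIR-NBS-LRR, NB-ARC, CC-NBS-LRR or disease resistance protein. This took 43 of the 3691 genes listed in the deposited tables, out of 159 protein-coding genes with such a name in the whole annotation (TAIR10.1). By their product names 34 were of the TIR class, 5 of the coiled-coil class (CC-NBS-LRR) and 4 were other NB-ARC receptors. The whole annotation holds 105, 25 and 29 genes of these classes. The plants were wild type of ecotype Col-0, grown in divided I-plates. The treated groups, root 2,5-D and shoot 2,5-D, received the volatile 2,5-dimethylpyrazine (2,5-D, a pyrazine that microbes release) at 100 µM on a paper disc. The control groups, root water and shoot water, received sterile water on the disc. The labels give an exposure of 24 hours and also name 14 days of co-cultivation before harvest, which leaves the length of contact uncertain. Each of the 4 groups has 2 libraries from total RNA. The labels do not say whether replicates are separate cultures of plants. The p-values therefore cover only library-to-library spread, possibly technical. RNA was taken from whole organs, in which fewer cells of a type and less RNA per cell cannot be told apart.

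These receptors, called NLRs, sit inside the plant cell and detect molecules that pathogens deliver into it, directly or through changes in guarded host proteins. The NB-ARC domain binds ATP or ADP and works as the switch. TIR domains are enzymes that use NAD+ and signal through EDS1 with PAD4 or SAG101 to helper receptors. Coiled-coil receptors such as ZAR1 can assemble into a ring in the plasma membrane that lets calcium into the cell. Many NLR genes stand in clusters of close copies and their transcript levels are held low in healthy plants, since too much receptor can cause autoimmunity.

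The classes can be told apart in the DNA itself. At the end of the kinase-2 motif of the NB-ARC domain, coiled-coil type receptors carry a tryptophan codon, and TIR receptors usually an aspartate codon. The stretches below show this for receptors on which the results turn. Each is 30 bases of RefSeq coding sequence (TAIR10.1, coding strand, 5′ to 3′), inside 1 coding exon, with the codon that ends the motif in capitals. The chromosome stands in each name.
AT5G35450, coiled-coil, chromosome 5: agatatttggttgtcctcgatgatgtaTGG
AT1G58848 and AT1G59218, coiled-coil, chromosome 1: aagtcattaattgtcctcgatgacataTGG
RPM1, other NB-ARC, chromosome 3: aggtacattgttgtgcttgatgatgtaTGG
AT5G58120, TIR, chromosome 5: aaagttcttatcattcttgatgatgtgGAC
SNC1, RPP4, RPP5 and AT4G16960, TIR, chromosome 4: aaagttcttatccttcttgatgatgtgGAT
RPS6, TIR, chromosome 5: aaagctctcatcgttattgatgatttaGAT
AT1G66090, TIR, chromosome 1: agggttcttatcattcttgatgacgtgACG
RRS1, TIR, chromosome 5: agagttcttgttgttctcgatgacgtgCGC

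All 9 receptors outside the TIR class carried the tryptophan codon, and none of the 30 TIR receptors with a match did. Of those 30, 20 carried an aspartate codon. The pattern searched for had no match in the other 4 TIR genes (RPP1, AT3G44630, AT3G44670 and AT1G61100). Of all members only AT1G61100 also lacked a match to the P-loop, the nucleotide-binding motif of the NB-ARC domain. The names and the codon thus gave the same classes for all 39 genes that could be compared. Among those 39 genes there were 34 distinct stretches. Of the 5 listed genes of the RPP5 cluster on chromosome 4, 4 share the stretch shown, as do the neighbours AT1G58848 and AT1G59218. A further stretch is shared by AT1G31540 and AT5G46490, which lie on different chromosomes.

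Close copies also limit what the values can say. Of the 50-base exonic windows of AT1G58848, 99.3% had an identical copy elsewhere in the genome, as had 100% of those of AT1G59218. Their transcripts are reported as uncertain, because counting could split reads between them. Above 10% of windows were shared in 14 of the 43 genes, among them AT4G16960 (56.7%), AT5G46510 (49.5%), RPP5 (45.1%) and RPP1 (44.3%). In 21 genes no window was shared.

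Organ identity matched the labels in all libraries. The 3 listed root markers of 6 summed to 57.8 and 72.9 in root 2,5-D, 128 and 121 in root water, and 1.87 to 3.95 in shoots. The 5 listed shoot markers of 6, genes of photosynthesis, summed to 113 to 157 in roots, to 4340 and 4780 in shoot 2,5-D and to 7130 and 7410 in shoot water. Both sums were lower with 2,5-D in their own organ, and their part in the results below was not tested. Only 2 of the 3691 listed genes had overlapping 2,5-D and water libraries in both organs, so the tables are treated as chosen on these same libraries. Calls among them are then not independent evidence of a response. The shoot water libraries stood apart from each other: 553 listed genes (15.0%) differed over 2-fold between them on the log2(value + 1) scale, 470 of which were higher in replicate 2. The shoot 2,5-D libraries carry the same column header, so their numbers 1 and 2 are names only. Values are the authors' normalized expression signal, which behaves as scaled by gene length.

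In roots 9 receptor transcripts rose with 2,5-D, 2 fell, and 30 of the 41 tested did not pass (adjusted p of 0.05, limma on log2(value + 1), adjusted over all 3487 tested genes). Of all tested genes 39.0% were called higher and 22.5% lower, against 22% and 4.88% of the receptors. Both shares of the receptors are the smaller ones, a difference that was not tested. At an unadjusted p under 0.05 stood 13 receptors, beside 66.6% of all tested genes. Their median log2 change was 0.01, against 0.26 over all tested genes. With equal library medians, which moved the median of all tested genes by -0.11, 7 receptors were called higher and 5 lower. The share of all tested genes called in that fit is not given. The number of receptor calls also changed with the root library left out. The receptor median was then 0.19 (without water replicate 1), -0.07 (water replicate 2), 0.06 (2,5-D replicate 1) and -0.01 (2,5-D replicate 2). AT1G17600 and AT4G11170 lay below the filter in roots, a mean value of 1. Both 2,5-D libraries stood above both water libraries for 15 of 43 receptors and below them for 10, where 51.3% and 31.5% of all listed genes did so.

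**Figure D1:**
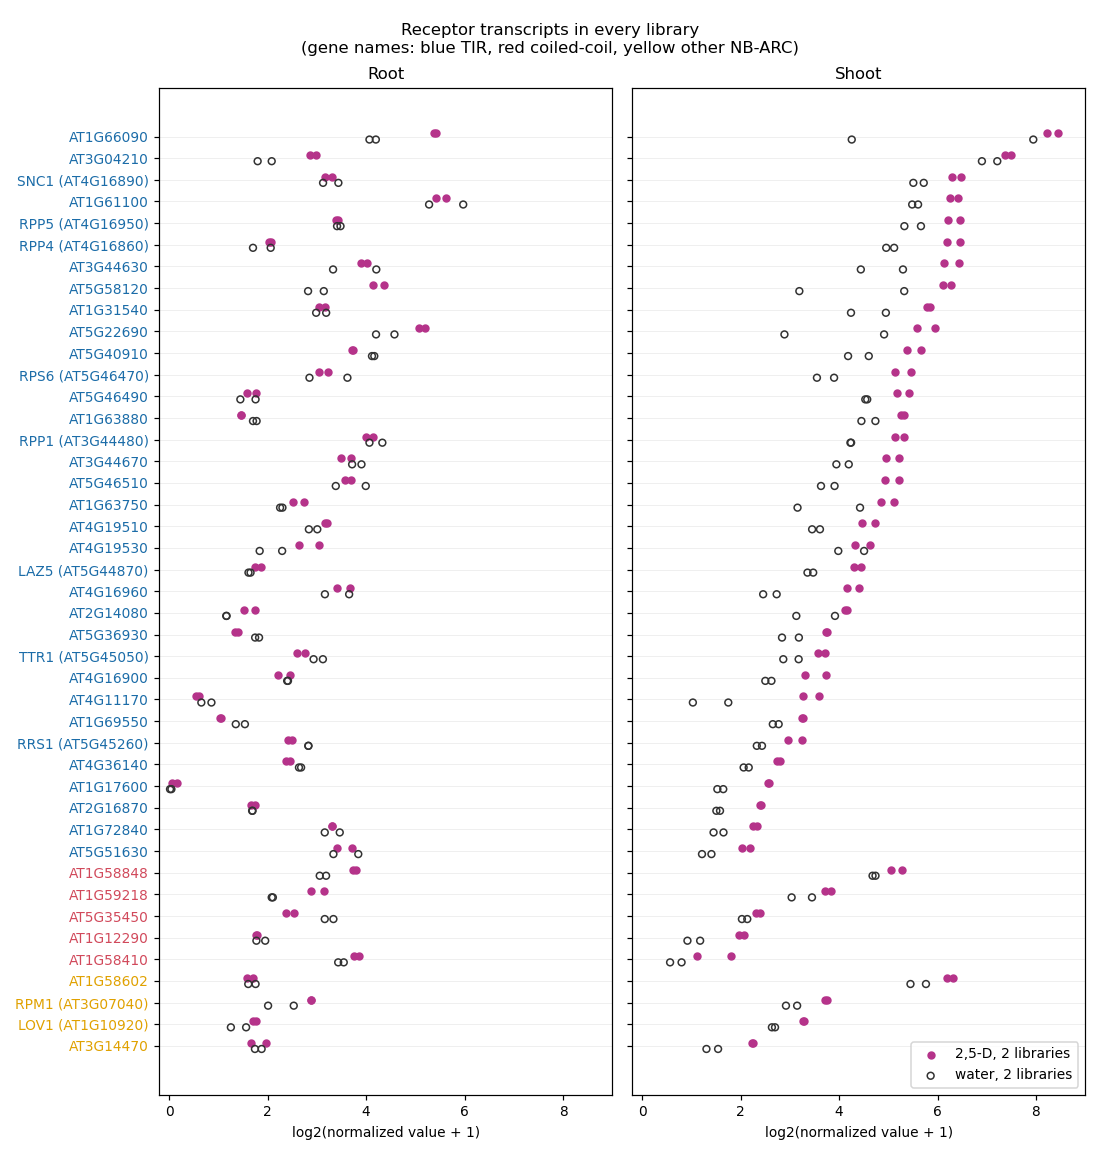
Normalized values of the 43 receptor transcripts in every library, as log2(value + 1), in roots (left) and shoots (right). Filled points are the 2 libraries with 2,5-D and open points the 2 libraries with water; genes are grouped by class and ordered by their mean in shoot 2,5-D. In shoots the filled points lie right of the open ones for 42 of 43 genes; in roots they mix for 18.

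Of 32 TIR receptors tested in roots, 6 rose and 1 fell. The largest change was in AT1G66090, a TIR-NBS protein without the repeats in its product name. Its value was 40.5 and 41.8 in root 2,5-D and 17.3 and 15.8 in root water (log2 change 1.27, SE 0.15, adjusted p = 0.000245). AT5G58120, a TIR-NBS-LRR gene, had 19.4 and 16.6 in root 2,5-D and 7.81 and 6.06 in root water (log2 change 1.26, SE 0.18, adjusted p = 0.000475). In both genes the treated roots stood at over 2-fold the water roots and the libraries did not overlap. AT3G04210, the other TIR-NBS gene, had 6.89 and 6.21 in root 2,5-D and 3.23 and 2.47 in root water (log2 change 0.98, adjusted p = 0.00154). All 3 genes were clear of the water roots. AT5G22690 had 32.5 and 35.9 in root 2,5-D and 22.8 and 17.4 in root water (log2 change 0.75, adjusted p = 0.00512). AT4G19530 had 7.24 and 5.23 in root 2,5-D and 3.90 and 2.57 in root water (log2 change 0.78, adjusted p = 0.011). AT2G14080, with 2.35 and 1.86 in root 2,5-D and 1.23 and 1.24 in root water, passed narrowly (log2 change 0.47, adjusted p = 0.0493). All of these were higher in both treated libraries than in both water libraries.

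The TIR receptor that fell in roots was AT5G40910, which had 12.3 and 12.2 in root 2,5-D and 16.9 and 16.4 in root water (log2 change -0.42, SE 0.15, adjusted p = 0.0357). The 4 libraries formed 2 tight pairs. This call was lost whichever root library was left out, with adjusted p of 0.0515 to 0.145. Without 2,5-D replicate 1 the calls of AT4G19530 (adjusted p = 0.136) and AT2G14080 (0.305) were lost too, and without 2,5-D replicate 2 those of AT2G14080 (0.108) and AT5G22690 (0.071). The call of AT2G14080 was also lost with equal medians (0.091), pseudocount 0.1 (0.0518) and pseudocount 5 (0.0606), and that of AT5G40910 once a trend on gene length was removed (0.0885). The calls of AT1G66090, AT5G58120 and AT3G04210 were kept whichever root library was left out.

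Among the 9 receptors of coiled-coil type (coiled-coil and other NB-ARC), 3 rose in roots and 1 fell. The median root change was -0.01 for TIR receptors and 0.32 for these 9, with no test between the classes. This order turned without root water replicate 1, where the medians were 0.21 for TIR receptors and 0.17 for the 9. The 3 that rose include the near-identical AT1G58848 and AT1G59218, counted as separate genes. The gene that fell was AT5G35450, with 4.17 and 4.80 in root 2,5-D and 7.93 and 9.09 in root water (log2 change -0.79, SE 0.17, adjusted p = 0.00292). It had the largest fall of all receptors tested in roots, to 0.527 times the mean of the water libraries. The near-identical AT1G59218 and AT1G58848 rose. AT1G59218 had 7.86 and 6.38 in root 2,5-D and 3.30 and 3.23 in root water (log2 change 0.92, adjusted p = 0.00174). AT1G58848 had 12.9 and 12.3 in root 2,5-D and 8.10 and 7.32 in root water (log2 change 0.65, adjusted p = 0.00566). The libraries did not overlap in either gene, but reads of the pair cannot be assigned with certainty. RPM1 (AT3G07040), which guards the host protein RIN4 and recognizes effectors of Pseudomonas syringae, had 6.37 and 6.36 in root 2,5-D and 4.77 and 3.02 in root water (log2 change 0.61, adjusted p = 0.024). The treated libraries of RPM1 were alike, and its spread lay between the water libraries. Its call was lost without water replicate 2 (adjusted p = 0.148), without 2,5-D replicate 1 (0.127), without 2,5-D replicate 2 (0.12) and with equal medians (0.0546). That of AT1G58848 was lost without 2,5-D replicate 1 (0.0573), while AT5G35450 and AT1G59218 kept theirs throughout. LOV1 (AT1G10920) is named for sensitivity to the fungal toxin victorin, and whether its Col-0 allele acts so was not tested. LOV1 had 2.41 and 2.25 in root 2,5-D and 1.38 and 1.95 in root water, and did not pass (adjusted p = 0.15).

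Among the receptors named for their resistance role, RPP1, RPP4, RPP5, SNC1, RRS1, TTR1 and LAZ5 were not called in roots. RPP1, RPP4 and RPP5 are named for recognition of strains of the downy mildew Hyaloperonospora arabidopsidis. Whether the Col-0 alleles measured here recognize them was not tested. RPP1 had 15.0 and 16.7 in root 2,5-D and 19.1 and 15.8 in root water (log2 change -0.12, adjusted p = 0.524). RPP4 had 3.05 and 3.18 in root 2,5-D and 3.17 and 2.25 in root water (log2 change 0.16, adjusted p = 0.467). RPP5 had 9.72 and 9.46 in root 2,5-D and 10.2 and 9.62 in root water (log2 change -0.04, adjusted p = 0.837). SNC1, known for an overactive allele that causes autoimmunity and dwarfing, had 8.95 and 7.95 in root 2,5-D and 9.82 and 7.72 in root water (log2 change -0.04, adjusted p = 0.845). In all 4 genes the treated and water libraries overlapped. RPP4, SNC1 and RPP5 belong, with AT4G16900 and AT4G16960, to the RPP5 cluster, whose 5 listed genes had root log2 changes of -0.07 to 0.16, with none called.

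RRS1 (AT5G45260) and TTR1 (AT5G45050) carry a WRKY domain fused to a TIR receptor. In RRS1, which works with the neighbouring receptor RPS4, this domain is a decoy for effectors. RRS1 had 4.29 and 4.61 in root 2,5-D and 6.10 and 6.08 in root water (log2 change -0.38, SE 0.16, adjusted p = 0.0622). TTR1 had 5.00 and 5.73 in root 2,5-D and 6.63 and 7.70 in root water (log2 change -0.36, adjusted p = 0.0858). Both genes had lower values in both treated libraries, but neither passed the threshold. LAZ5 (AT5G44870), identified through a mutant with runaway cell death, had 2.35 and 2.63 in root 2,5-D and 2.14 and 2.05 in root water (adjusted p = 0.4).

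**Figure D2:**
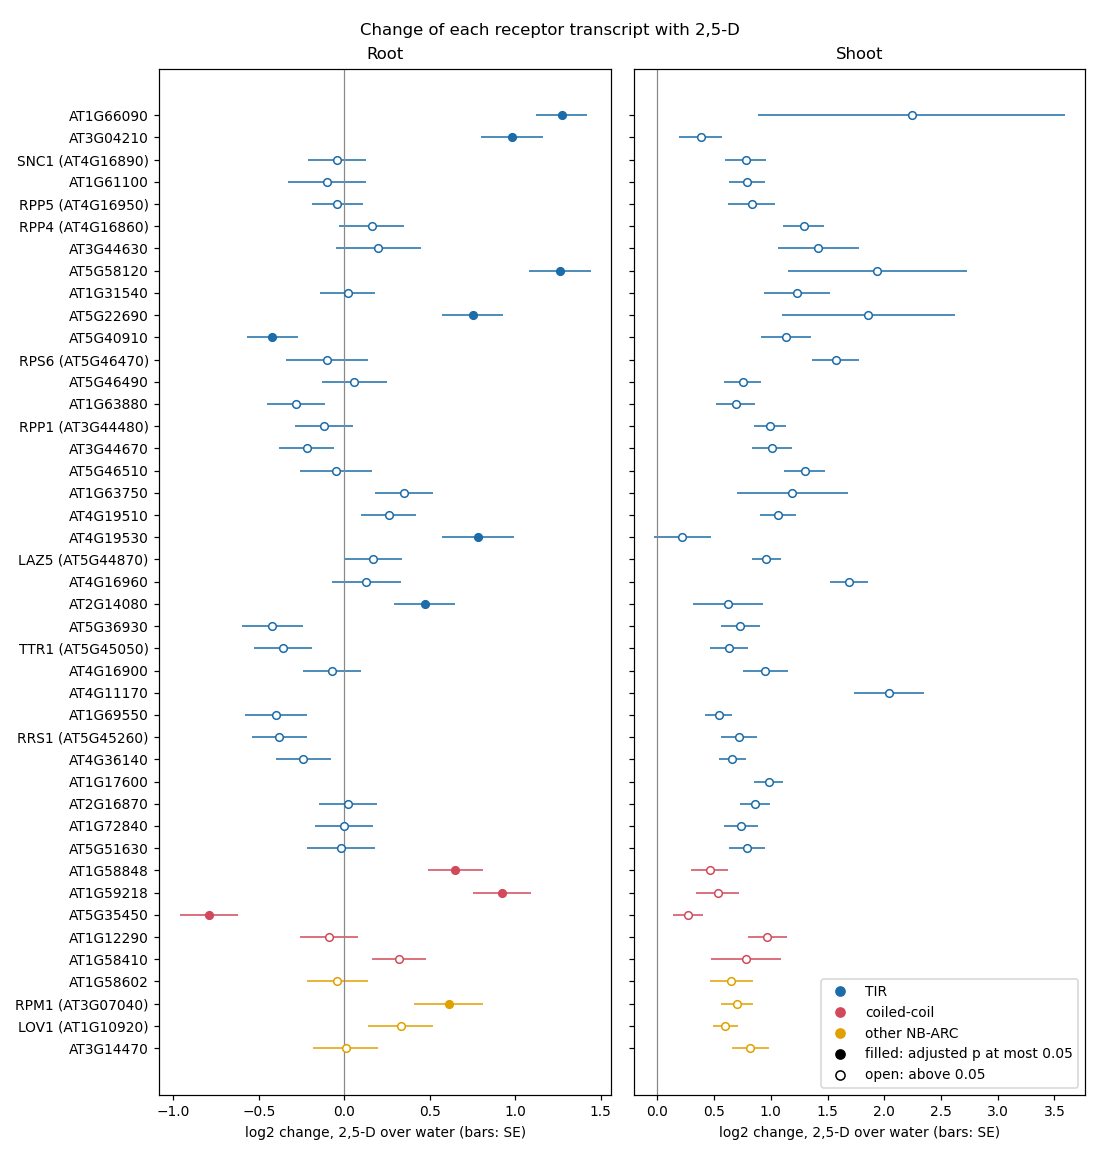
Log2 change of each receptor transcript, 2,5-D over water, in roots (left) and shoots (right), with bars of 1 SE; filled points passed adjusted p of 0.05, and colours give the class. Root changes lie on both sides of 0 with 11 genes called, while all 43 shoot changes lie above 0 with none called. Of 409 tested genes of like length, which are not drawn, 365 also lay above 0 in shoots. AT1G17600 and AT4G11170 were not tested in roots.

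In shoots all 43 receptor transcripts had a positive log2 change, with a median of 0.82 and a range of 0.22 to 2.24. Positive changes were also found for 2134 of the 3376 genes tested and for 365 of 409 genes of like length (3074 to 5386 bases). No receptor passed an adjusted p of 0.05 in limma, nor did any of the 3376 genes tested (0.0%), whose lowest adjusted p was 0.0524. At an unadjusted p under 0.05 stood 33 of the receptors, against 1664 of all tested genes (49.3%) and 303 of 409 of like length. The lowest adjusted p was shared by 22 receptors, with unadjusted p from 0.00078 (AT4G16960) to 0.00982 (AT1G61100). How many of all tested genes shared it is not given. Both 2,5-D libraries exceeded both water libraries for 42 of 43 receptors (97.7%), against 49.7% of all listed genes. They were below both water libraries for none, against 25.9% of all listed genes. The exception was AT4G19530, with 18.9 and 23.6 in shoot 2,5-D and 21.8 and 14.8 in shoot water. Without shoot water replicate 1 limma called 40 receptors higher, beside 42.2% of all tested genes, and none lower, beside 20.4%. Without water replicate 2 it also called 40 higher, beside 47.7%, and none lower, beside 25.5%. Without either 2,5-D library it called none. In such fits the spread comes from the intact pair alone, and the lone library is assumed to vary likewise.

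The listed genes as a whole also shifted. The median change over all genes tested in shoots was 0.37. After each library was set to an equal median, the median of all tested genes moved by -0.39, and that of the receptors was 0.53, with 40 positive and 3 negative. limma then called 4 receptors higher, beside 2.04% of all genes. With a pseudocount of 5 in place of 1 it called 22, beside 15.1%.

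TIR receptors had a median shoot change of 0.96, against 0.65 for the 9 of coiled-coil type, again with no test between the classes. The change was largest for AT1G66090 (log2 change 2.24), whose water libraries are far apart and are described with the water pair. AT4G11170, annotated as RMG1 and known to be controlled by DNA methylation, had 11.1 and 8.59 in shoot 2,5-D and 1.04 and 2.36 in shoot water (log2 change 2.04, SE 0.31, adjusted p = 0.0524). The treated shoots averaged 5.8 times the water shoots. This ratio was 4.18 without water replicate 1 and 9.49 without water replicate 2. In roots this gene had 0.51 and 0.46 with 2,5-D and 0.81 and 0.57 with water, below the filter.

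AT4G16960 of the RPP5 cluster had 20.2 and 16.9 in shoot 2,5-D and 4.49 and 5.64 in shoot water (log2 change 1.69, SE 0.17, adjusted p = 0.0524). RPS6 (AT5G46470), which recognizes the effector HopA1 of P. syringae, had 43.1 and 34.0 in shoot 2,5-D and 10.7 and 13.9 in shoot water (log2 change 1.57, SE 0.21, adjusted p = 0.0524). The treated shoots averaged 3.66 times the water shoots for AT4G16960 and 3.13 times for RPS6, and neither gene's libraries overlapped. The RPS6 neighbour AT5G46510, annotated as VICTL, had 36.0 and 29.7 in shoot 2,5-D and 11.4 and 14.0 in shoot water (log2 change 1.3, adjusted p = 0.0524). RPP4 had 86.7 and 72.5 in shoot 2,5-D and 30.1 and 33.7 in shoot water (log2 change 1.29, adjusted p = 0.0524). AT4G11170, AT4G16960, RPS6 and AT5G46510 were the 4 genes called once the libraries had equal medians.

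The other known TIR receptors had smaller shoot changes in the same direction. SNC1 had 88.5 and 77.8 in shoot 2,5-D and 44.5 and 51.7 in shoot water (log2 change 0.78, adjusted p = 0.0538). RPP5 had 86.5 and 72.9 in shoot 2,5-D and 39.1 and 49.7 in shoot water (log2 change 0.83, adjusted p = 0.059). RPP1 had 38.8 and 34.3 in shoot 2,5-D and 17.8 and 18.0 in shoot water (log2 change 0.99, adjusted p = 0.0524). In all 3 genes the treated shoots lay clear of the water shoots. LAZ5 had 20.7 and 18.9 in shoot 2,5-D and 10.11 and 9.25 in shoot water (log2 change 0.96, adjusted p = 0.0524). RRS1 had 8.43 and 6.79 in shoot 2,5-D and 4.40 and 4.02 in shoot water (log2 change 0.72, adjusted p = 0.0527). TTR1 had 12.2 and 10.9 in shoot 2,5-D and 8.05 and 6.29 in shoot water (log2 change 0.63, adjusted p = 0.0642). These 3 genes showed the same separation at lower levels.

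Among receptors of coiled-coil type the shoot changes ran from 0.27 to 0.97. AT1G58602 of the AT1G58410 to AT1G59218 cluster had 79.0 and 72.4 in shoot 2,5-D and 53.4 and 42.7 in shoot water (log2 change 0.65, adjusted p = 0.0722). RPM1 had 12.1 and 12.4 in shoot 2,5-D and 6.57 and 7.86 in shoot water (log2 change 0.7, adjusted p = 0.0524). LOV1 had 8.61 and 8.70 in shoot 2,5-D and 5.49 and 5.21 in shoot water (log2 change 0.6, adjusted p = 0.0524). Treated and water shoots did not overlap in these genes or in any other of the 9. AT1G58848 had 37.9 and 32.1 in shoot 2,5-D and 25.7 and 24.6 in shoot water (log2 change 0.46, adjusted p = 0.0959). AT1G59218 had 13.3 and 12.04 in shoot 2,5-D and 9.92 and 7.20 in shoot water (log2 change 0.53, adjusted p = 0.107). AT5G35450, which fell in roots, had 4.25 and 3.93 in shoot 2,5-D and 3.07 and 3.39 in shoot water (log2 change 0.27, adjusted p = 0.184). These were among the smaller shoot changes of the receptors.

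The difference between the shoot water libraries touched a few TIR receptors strongly. AT1G66090 had 348 and 299.8 in shoot 2,5-D, but 18.1 in water replicate 1 and 246 in water replicate 2. Without water replicate 1 its log2 change was 0.39, and without water replicate 2 it was 4.08. AT5G58120 had 76.5 and 68.0 in shoot 2,5-D and 8.14 and 39.0 in shoot water, and AT5G22690 had 60.4 and 47.2 in shoot 2,5-D and 6.41 and 29.2 in shoot water. AT1G63750 had 33.5 and 27.8 in shoot 2,5-D and 7.91 and 20.5 in shoot water. These 4 genes were the receptors over 2-fold apart between the water libraries on the log2(value + 1) scale, all of them TIR and all higher in replicate 2. The share of receptors was 9.3%, against 6.03% of other genes of like length and 15.0% of all listed genes. No receptor was over 2-fold apart between the root water libraries or between the shoot 2,5-D libraries. AT1G66090, AT5G58120 and AT5G22690 are also TIR genes that rose in roots, where their water libraries were within 1.5-fold of each other.

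**Figure D3:**
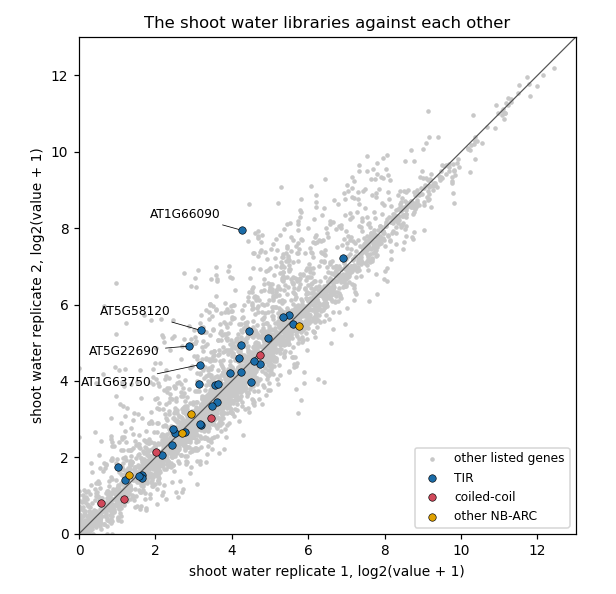
Shoot water replicate 2 (vertical) against shoot water replicate 1 (horizontal) for the 43 receptors, coloured by class, and all other listed genes in grey, both as log2(value + 1); the line marks equal values. The 4 named TIR genes lie over 2-fold above the line, with AT1G66090 at 18.1 in replicate 1 and 246 in replicate 2.

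Root and shoot changes differed for 24 of the 41 receptors tested, all with a lower change in roots than in shoots (limma on the difference of the changes, adjusted over 3215 genes). Of all genes 21.2% had such a lower root change and 7.87% a higher one. The count was 21 of 32 for TIR receptors and 3 of 9 for those of coiled-coil type, and whether these shares differ was not tested. RPS6 had the largest such difference, -1.67 (SE 0.39, adjusted p = 0.0295). Its root values were 7.23 and 8.34 with 2,5-D and 11.3 and 6.20 with water, which overlap, beside the separated shoot values above. AT4G16960 differed by -1.56 (adjusted p = 0.0222), with root values of 9.55 and 11.8 with 2,5-D and 11.6 and 7.95 with water. AT5G46510 differed by -1.36 (adjusted p = 0.0298), with root values of 10.9 and 11.9 with 2,5-D and 14.9 and 9.43 with water. In these 3 genes the root libraries overlapped and the shoot libraries did not.

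AT5G40910 fell in roots, and in shoots had 49.7 and 40.9 with 2,5-D and 17.2 and 23.3 with water (difference -1.55, adjusted p = 0.0198). AT3G44670 had 10.2 and 11.9 in root 2,5-D and 14.0 and 12.1 in root water, and 36.4 and 29.8 in shoot 2,5-D and 14.4 and 17.3 in shoot water (difference -1.24, adjusted p = 0.0222). Both had lower root values and higher shoot values in every treated library. Such opposite separation held for 10 receptors (23.3%), against 25.3% of other genes of like length and 7.34% of all listed genes. Both organs were higher for 14 receptors (32.6%), against 23.2% and 31.1%. Of the 10 with opposite separation, only AT5G40910 and AT5G35450 were called lower in roots. The root change of AT3G44670 was not called (log2 change -0.22, adjusted p = 0.253). AT1G31540 had 7.20 and 8 in root 2,5-D and 8.11 and 6.91 in root water, and 56.8 and 54.4 in shoot 2,5-D and 17.9 and 29.9 in shoot water (difference -1.21, adjusted p = 0.039). The 18 receptors whose libraries overlapped in roots were all separated, and higher, in shoots, as were 151 of the 154 genes of like length that overlapped in roots. Genes that overlap in both organs are almost missing from the tables (2 of 3691), so an overlap in roots left little room for an overlap in shoots. The count of 24 was 0 whichever root library or shoot 2,5-D library was left out. It was 4 with equal medians and 0 once each library's trend on gene length was removed. Shares of all tested genes called in these fits are not given. The counts thus do not show whether the receptors moved more than other genes.

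The receptor genes are long, and the change with 2,5-D ran with length in the listed genes. Exonic length was 1668 to 5905 bases in the receptors, with a median of 4295, against a median of 1740 over all listed genes. In shoots the median change of other genes was -0.47 below 1000 bases, 0.02 from 1000 to 1500 bases and 0.66 to 0.68 from 3000 bases up. In roots it was 0.34 below 1000 bases and 0.46 from 1000 to 1500 bases, and -0.05 to -0.12 from 3000 bases up. The receptors were therefore set beside the 431 other listed genes between the 10th and 90th percentiles of receptor length, 3074 to 5386 bases. Only these other genes were limited by length, and all receptors were kept. Longer receptors such as RPP5 (5801 bases) lie outside this range. So do AT1G66090 (1668 bases) and AT3G04210 (2424 bases), both called higher in roots. The root median of other genes was 0.43 from 1500 to 2000 bases and 0.28 from 2000 to 2500 bases.

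In roots 22% of the receptors were called higher and 4.88% lower, against 12.7% and 20.6% of the 408 genes of like length tested. The root medians were 0.01 for the receptors and -0.06 for genes of like length. In shoots the medians were 0.82 for the receptors and 0.67 for genes of like length. Both 2,5-D libraries exceeded both water libraries in shoots for 97.7% of receptors and 83.5% of genes of like length. Without shoot water replicate 1 limma called 40 of 43 receptors and 79.0% of the like-length genes higher, and without replicate 2 it called 40 and 78.0%. When the trend on length was removed, the shoot median was 0.17 for the receptors (31 positive, 12 negative) and -0.01 for genes of like length. It was 0.26 for TIR receptors and -0.04 for those of coiled-coil type, of which 4 were positive and 5 negative. For the difference between organs, 24 of 41 receptors were called lower in roots and none higher (median -0.89), beside 239 lower and 5 higher of 393 genes of like length (median -0.79). No test was made of members against other genes, which are not replicates.

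**Figure D4:**
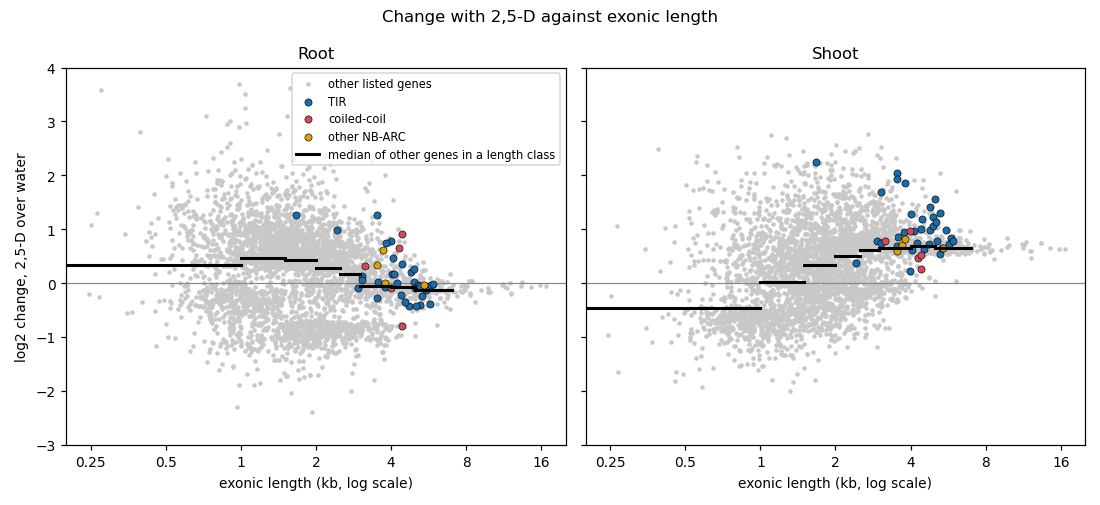
Log2 change with 2,5-D over water against exonic length in kilobases (log scale) for roots (left) and shoots (right), with receptors coloured by class and other listed genes in grey. Black lines give the median of other genes in each length class. In shoots these medians run from -0.47 in the shortest class to 0.66 in the longest, and most receptors lie at or above the lines of their length.

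The level of the receptors differed between organs. Values are compared between organs and genes on the deposited, length-scaled signal, without a test, since the tables may have been normalized separately. With 2,5-D the root libraries were both above the shoot libraries for 3 receptors and below them for 39. Of genes of like length 23.7% were above and 58.2% below, and of all listed genes 49.9% and 40.0%. With water they were above for 10 receptors, below for 27, and 6 overlapped. In percent this is 23.3% above and 62.8% below, against 70.5% and 16% of genes of like length and 55.5% and 25% of all listed genes. None of these differences between gene sets was tested. Summed over the 34 TIR genes, the signal was 319 and 339 in root 2,5-D, 325 and 249.95 in root water, 1637 and 1472 in shoot 2,5-D, and 578 and 952 in shoot water. Over the 5 coiled-coil genes it was 39.9 and 39.4 in root 2,5-D, 32.4 and 32.3 in root water, 60.9 and 52.5 in shoot 2,5-D, and 40.4 and 36.9 in shoot water. The shoot water libraries thus differed in the TIR sum more than in the coiled-coil sum, and AT1G66090 alone held 18.1 of the TIR sum in water replicate 1 and 246 of it in water replicate 2.

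By the mean over all 4 root libraries, the most abundant members of the TIR class in roots were AT1G61100, AT1G66090 and AT5G22690. In root water alone AT1G66090 (mean 16.6) stood below RPP1 (17.4) and AT5G40910 (16.7). AT1G61100, a TIR protein with no NB-ARC domain in its name, had 41.8 and 48.3 in root 2,5-D and 61.8 and 37.8 in root water, and 74.9 and 84.6 in shoot 2,5-D and 47.7 and 43.8 in shoot water. By the mean over all 4 shoot libraries AT3G04210 followed AT1G66090, with 166 and 179.7 in shoot 2,5-D and 119 and 148 in shoot water, and SNC1 came next. In shoot water alone the means of AT3G04210 (133) and AT1G66090 (132) were alike, and in water replicate 1 AT3G04210 was higher. AT3G04210 was far lower in roots, at 2.47 to 6.89 over the 4 libraries. The coiled-coil gene AT1G58410 ran the other way, with 12.5 and 13.6 in root 2,5-D, 10.7 and 9.79 in root water, 2.51 and 1.15 in shoot 2,5-D and 0.48 and 0.74 in shoot water. AT1G58602, in the same cluster, had 2.26 and 1.99 in root 2,5-D and 2.04 and 2.37 in root water, far below its shoot values above. AT3G14470 was low in both organs, with 2.17 and 2.93 in root 2,5-D, 2.67 and 2.34 in root water, 3.70 and 3.79 in shoot 2,5-D and 1.47 and 1.91 in shoot water.

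Position gave a further grouping. In the annotation's gene order 16 of the 43 genes fell in 5 clusters of neighbours. The AT3G44630 and AT3G44670 pair had shoot changes of 1.42 and 1.01, the RPP5 cluster 0.78 to 1.69, and the RPS6 cluster of 3 genes 0.75 to 1.57. Root changes in these 3 clusters ran from -0.22 to 0.2, with none called. The AT4G19510 and AT4G19530 pair had root changes of 0.26 and 0.78, with 1 called, and shoot changes of 1.06 and 0.22. The 4 genes of the AT1G58410 to AT1G59218 cluster had root changes of -0.04 to 0.92, with 2 called, and shoot changes of 0.46 to 0.78. The letters TTGAC, the core bound by WRKY factors, were searched on both strands in the 250 bases before each gene start. They were found for 46.5% of the receptors, 50.5% of the other listed genes and 44.9% of all protein-coding genes. They were found at least 2 times for 25.6% of the receptors (11 genes), 18.9% of the other listed genes and 14.1% of all protein-coding genes.

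A list of 32 genes held partners and regulators of these receptors, helper receptors, and genes of salicylate and systemic resistance. Of these, 7 were in the tables. In roots 6 of them were tested, 2 rose (33.3%, beside 39.0% of all tested genes) and none fell (beside 22.5%). FMO1, an enzyme of systemic resistance, had 43.2 and 45.9 in root 2,5-D and 34.9 and 23.1 in root water (log2 change 0.63, adjusted p = 0.0228). HSP90.1, a chaperone of NLR proteins, had 61.5 and 57.3 in root 2,5-D and 33.0 and 23.1 in root water (log2 change 1.08, adjusted p = 0.00147). In both genes the root libraries did not overlap. SAG101, the partner of EDS1 in TIR signalling, had 25.7 and 23.1 in root 2,5-D and 20.6 and 14.6 in root water (adjusted p = 0.0528). In shoots none of the 7 passed, and 6 had both 2,5-D libraries above both water libraries, beside 49.7% of all listed genes. EDS5, the exporter of salicylate precursor from the plastid, had 50.8 and 38.4 in shoot 2,5-D and 12.7 and 12.8 in shoot water (log2 change 1.72, adjusted p = 0.0524). SAG101 had 57.1 and 62.6 in shoot 2,5-D and 14.6 and 30.4 in shoot water (log2 change 1.46, adjusted p = 0.0646). The exception was HSP90.1, with 12.9 and 10.7 in shoot 2,5-D and 18.2 and 9.16 in shoot water.

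A further 3 listed genes have a TIR domain in their names without meeting the rule. Of these, AT1G57630 and AT1G57850 rose in roots (log2 changes 1.14 and 1.39, adjusted p = 0.000976 and 0.00203), and AT2G20142 did not pass. Of all tested genes 39.0% were called higher in roots. In shoots all 3 had both 2,5-D libraries above both water libraries, beside 49.7% of all listed genes, with none called. ZAR1 (AT3G50950), a coiled-coil receptor whose product name falls outside the rule, had 85.6 and 97.9 in root 2,5-D and 63.8 and 49.5 in root water and rose (log2 change 0.69, adjusted p = 0.00843). In shoots it had 242 and 219.8 with 2,5-D and 85.8 and 155 with water (log2 change 0.99, adjusted p = 0.0982), again with no overlap.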

How the data were processed

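The authors deposited 1 table for each organ, which holds a normalized expression signal without a stated unit. Reads were aligned with HISAT2 2.0.4, per the submitters' processing notes. The build, annotation and counting program, and how genes were picked for listing, were not given in the sources used here. Low values fell near whole multiples of a step once scaled by exonic length less 250 bases (80.6% to 93.1% within 0.1), so the signal was taken as scaled by length. Total depth is unknown. Listed values summed to 252870 to 343912 per library. No column was left unused.

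All 3691 gene IDs matched RefSeq TAIR10.1, used for names, lengths, gene order and sequence only. Each organ was fitted with limma 3.58.1 (R 4.3.3, mean-variance trend, treatment as the only term) on log2(value + 1) for genes with a mean of at least 1. Fold changes on this scale understate changes of low values. P-values were adjusted by Benjamini-Hochberg over all tested genes. The fit was also run on simulated data with independent noise. The spread was smoothed over genes of similar mean, or fixed for the difference between organs. Such data do not hold the split between the shoot water libraries, so they do not show how the fit behaves there. An exact permutation test of 2 against 2 cannot go below p = 0.333 (two-sided), so none is given. SNC1 and other known receptors, genes called in an organ or between organs, and the 3 most abundant of each class are named. Further genes were named after their values were seen: AT1G63750, AT4G11170 and the other genes with the largest shoot changes. The members and lists were chosen with earlier results of these data known. The alternatives were other pseudocounts, filters and scalings, removal of a length trend, left-out libraries and a replicate block.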

Additional observations from a re-analysis of the deposited data

Results flagged for a closer look

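The changes with 2,5-D differed between roots and shoots, by a test of the difference itself, for 24 of the 41 receptor transcripts tested. The largest such differences, root change minus shoot change on the log2 scale, were -1.67 for AT5G46470 (RPS6), -1.56 for AT4G16960, -1.55 for AT5G40910, -1.36 for AT5G46510, -1.24 for AT3G44670 and -1.21 for AT1G31540. All 6 are TIR receptors, as were 32 of the 41 tested. Of 393 genes of like length, 239 were called lower in roots and 5 higher. Of all tested genes 21.2% were called lower in roots and 7.87% higher. With 2 libraries a group, no group was large enough to search for a library far from the others.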

How the results depend on the processing

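Of 122 recomputed summary values 86 stayed close to the reported ones and 36 moved. None of 307 values of selected genes changed sign, though calls of several were lost or gained. These genes were those called in roots and those with the largest shoot changes or differences between organs. Over all 43 receptors, each positive in shoots as reported, 12 shoot changes were negative with the length trend removed and 3 with equal medians. In roots (9 higher and 2 lower reported), lower calls were 4 with no filter, 5 with equal medians and 1 without the length trend. The number of calls also changed when 1 library was left out. Shares of all tested genes called in these root fits are not given. Equal medians put the root median at -0.08 for all receptors and -0.12 for TIR, and pseudocount 5 put that of coiled-coil type receptors at 0.14. With 1 library left out these medians were -0.07 to 0.19 (all), -0.14 to 0.21 (TIR) and 0.17 to 0.29 (coiled-coil type). Without root water replicate 1 the TIR median (0.21) lay above that of coiled-coil type (0.17). In shoots (0 called), 22 were called higher with pseudocount 5, 4 with equal medians and 0 to 40 with 1 library left out. The shoot median was 0.17 for receptors, 0.26 for TIR and -0.04 for coiled-coil type with the length trend removed, 0.58 (TIR) and 0.24 (coiled-coil type) with equal medians, and 0.4 (coiled-coil type) with pseudocount 5. With 1 library left out it ran from 0.57 to 0.68 for coiled-coil type. The 24 calls between organs were 4 with equal medians, 0 without the length trend and 0 to 30 with 1 library left out. Beside all genes within 10% of a receptor's length, the root median of receptors was -0.07 relative to theirs, against 0.07 in the main comparison. This wider set held 1618 genes, against 431. It took in lengths near the short receptors AT1G66090 (1668 bases) and AT3G04210 (2424 bases), so it is not of like length for most receptors. The causes of these shifts were not tested.

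A replicate block in roots left 8 higher and 2 lower. Deviations of same-numbered root libraries correlated at -0.0494 across 3487 genes. With 2 libraries a group this cannot decide whether same-numbered root libraries share a culture or batch. No paired analysis was possible in shoots because both 2,5-D columns carry replicate number 1. Where a library was left out, the intact pair alone gave the spread. With 2 libraries a group and unknown depth, a missed threshold does not show that a transcript did not change.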
